A study of Mus musculus with 15 samples.

Results

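Genes of mitosis were examined in primary mouse kidney proximal tubule cells: 50 genes that encode the cyclins and kinases of the G2 to M transition, the centromere and kinetochore, the spindle and its checkpoint, and cytokinesis. They were taken from a fixed list of symbols, which was chosen with earlier results of these data known. Each was found among the 24421 genes of the count table. All 50 also had enough counts to be tested, with at least 49 counts in every library. RNA was measured in 15 libraries from C57BL/6 mice of both sexes that were wild type (WT, Diet1+/+) or lacked Diet1 (KO, Diet1-/-), a gene linked to bile acid metabolism. The groups were female WT (n = 4 libraries), male WT (n = 4), female KO (n = 4) and male KO (n = 3). The cells had been passaged once in culture, and all groups were untreated as far as the labels say. The age of the mice is not given in the sources used here. Each group stands for 1 pool: the labels say that it joined cells from 3 to 4 mice, which were then divided into 4 technical replicates. The p-values below therefore measure the spread between libraries of a pool, and leave out how mice or cultures differ.

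A dividing cell enters mitosis when cyclin-dependent kinase 1 (Cdk1) is activated by A- and B-type cyclins. Polo and Aurora kinases then build the spindle, kinetochores attach chromosomes to its microtubules, and a checkpoint holds back the anaphase-promoting complex until all are attached. Most of these genes are transcribed mainly in G2 and M phase, through promoters bound by the DREAM and MuvB complexes with B-Myb and FoxM1, so their RNA is scarce in resting cells. Proximal tubule cells divide rarely in the healthy adult kidney and resume division after injury and in culture. In these bulk samples, fewer dividing cells and less RNA per dividing cell cannot be told apart.

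Library totals ran from 17648416 to 30896637 counts. The log2 CPM of tested genes correlated at no less than 0.9969 within groups and no more than 0.9955 between groups. Markers of the labelled cell type were mostly low in these cultures: 12 of 23 proximal tubule genes passed the filter on low counts, the phosphate transporter Slc34a1 reached at most 3 counts in any library, and Slc22a12 and Slc7a13 had none. The endocytic receptor Lrp2 was at 20.96 CPM in male WT and 19.5 CPM in female WT. Kidney epithelial genes such as Krt8, Krt18 and Pax8 were all tested, 8 of 8. Counts of the gene that encodes Diet1 were not analysed here, and the genotypes are those of the labels.

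The mitosis genes were lowest in female WT, higher in male WT, higher again in female KO and highest in male KO. Their summed level was 978, 1001, 1022 and 1020.1 CPM, the count relative to the TMM-scaled library size, in the female WT libraries. It was 1435, 1412, 1427 and 1412 CPM in male WT, 1629, 1674, 1712 and 1655 in female KO and 1820.5, 1794 and 1897 in male KO. No library of 1 group reached the range of another. The sum of male KO was 1.29 times that of male WT and the sum of female KO 1.66 times that of female WT, or 416 and 663 CPM more. Female WT stood at 70.7% of male WT, but female KO at 90.8% of male KO. Taken gene by gene, 46 of the 50 had their group means in this order, which 11.6% of all tested genes had. The exceptions were Cdc25b, Ndc80, Bub3 and Pttg1. In 37 of the 50, every female WT library lay below every male WT library and every male WT library below every female KO library. How many of all tested genes did so was not counted, so nothing is read from that number.

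**Figure D1:**
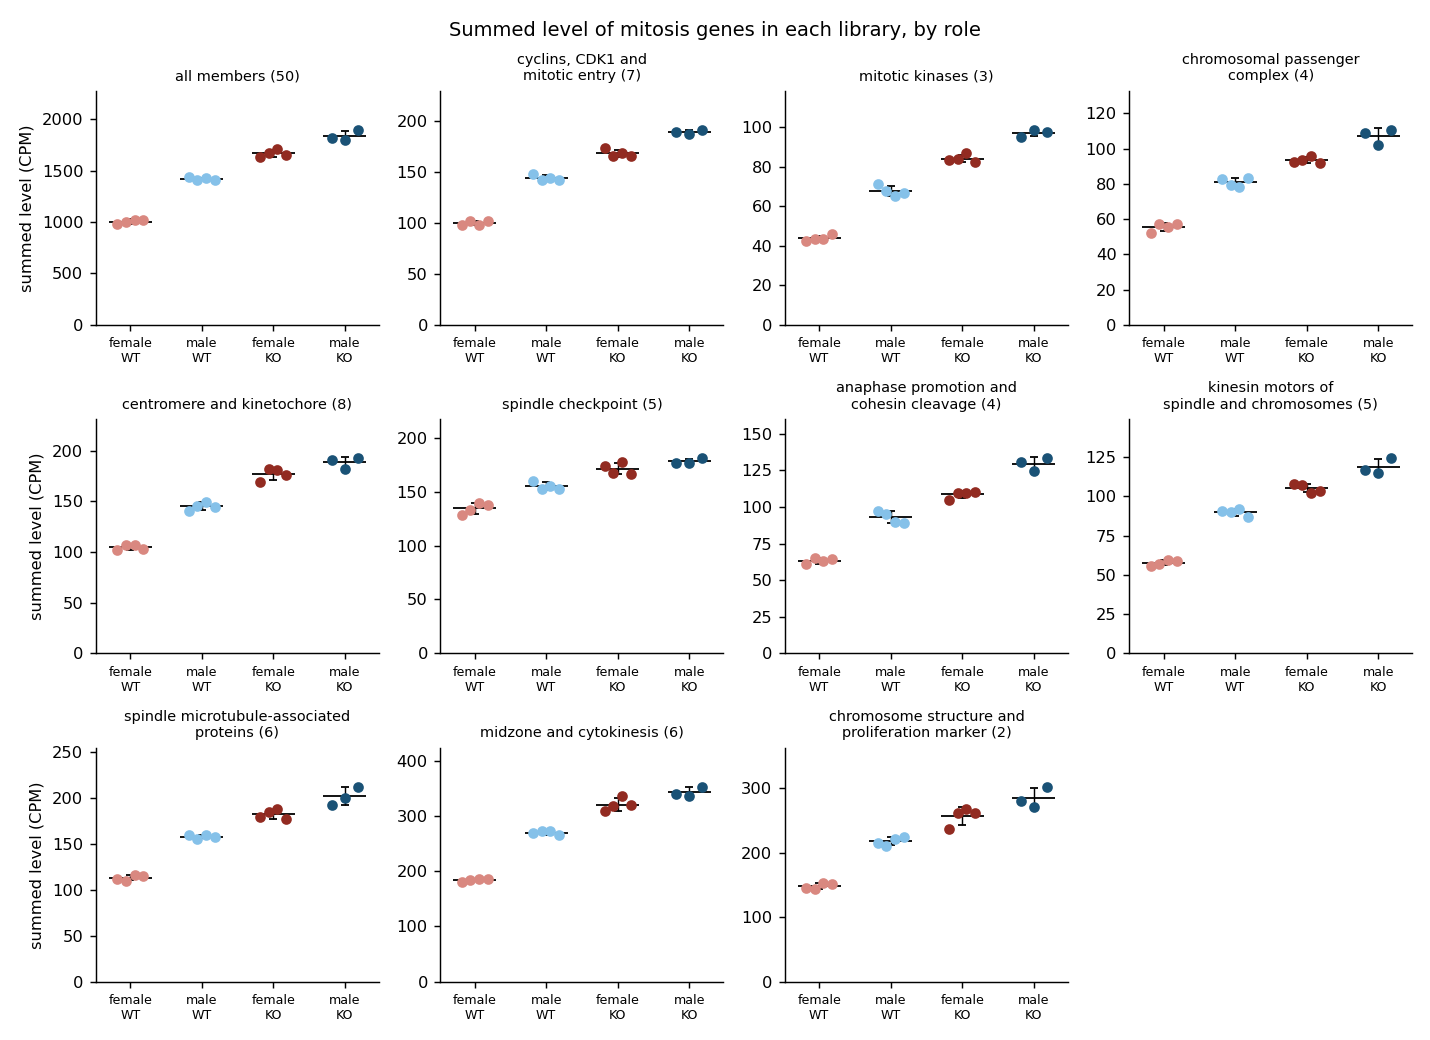
Summed level in CPM of all 50 mitosis genes and of each of 10 role groups (number of genes in parentheses) in each library. Points are libraries, bars the mean and SD of female WT (n = 4), male WT (n = 4), female KO (n = 4) and male KO (n = 3). The sum over all 50 runs from 978 to 1022 CPM in female WT to 1794 to 1897 CPM in male KO, and the order of the groups is the same in each role.

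Loss of Diet1 was compared with WT within each sex. In male KO 45 of the 50 genes rose and 0 fell, against 10.1% and 10.1% of all tested genes (adjusted p below 0.05 by edgeR's quasi-likelihood test, with the adjustment of Benjamini and Hochberg over all tested genes). In female KO 47 rose and 0 fell, against 20.7% and 18.6% of all tested genes. Both sexes shared 44 of these, where 7.38% of all tested genes rose in both. Since the list was chosen with earlier results of these data known, these shares are values and not an independent test. The median log2 fold change was 0.37 in males and 0.81 in females, or 1.29-fold and 1.75-fold, against 0.00021 and 0.00014 for all tested genes. Their lower and upper quartiles were 0.33 and 0.46 in males and 0.71 and 0.87 in females. By the libraries themselves, the lowest KO value lay above the highest WT value for 47 of the 50 in males and 47 in females, against 13.9% and 19.4% of all tested genes. The reverse held for 0 in males and for Pttg1 in females, against 13.7% and 16.7%. The changes were modest in size: 2 genes reached 1.5-fold in males, while 43 reached 1.5-fold and 5 reached 2-fold in females. Genes with a higher fold in males also tended to have one in females, with a Pearson r of 0.716 across the 50 genes and Spearman's rho at 0.765. The male and female folds share no library, but come from 1 fit of the same genes. Without Bub3, Pttg1 and Cdc25b these were 0.683 and 0.759.

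**Figure D2:**
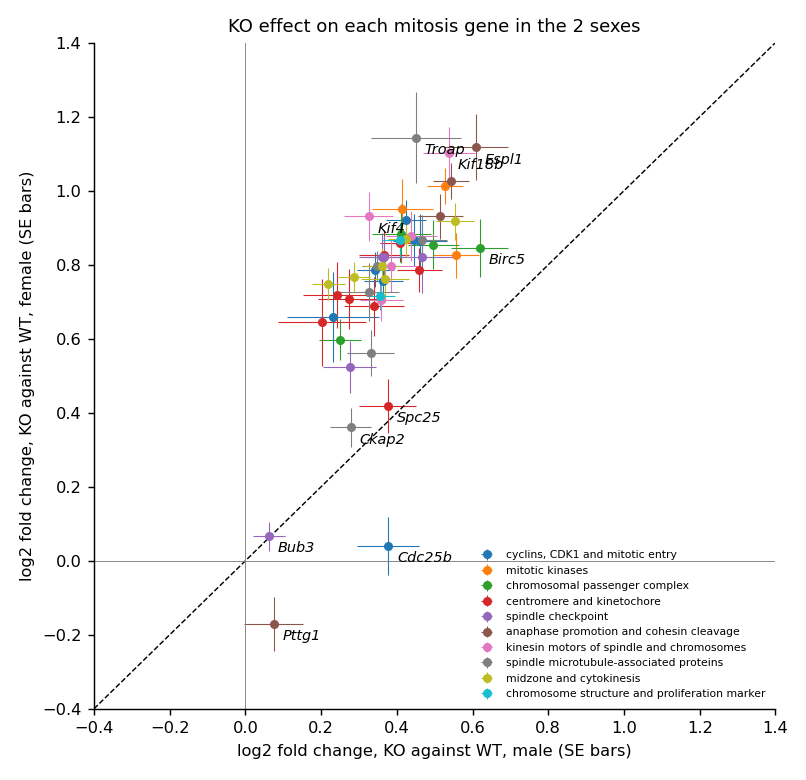
Log2 fold change of KO against WT in males (x axis) and in females (y axis) for each of the 50 genes, coloured by role, with standard errors as bars; the dashed line marks equal effects. All but Cdc25b and Pttg1 lie on or above the line, with Bub3 on it, and Troap (1.14), Espl1 (1.12) and Kif18b (1.10) have the highest female values.

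The promoters of the 50 genes were searched for the letters of elements known from cell cycle genes. These were the cell cycle genes homology region (CHR), TTTGAA or TTTAAA, which MuvB complexes bind, and CCAAT, the box bound by NF-Y. The genes were listed for their roles in mitosis, so a high share of these letters does not bear on the effect of KO. Both strands were searched in the 250 bases before and 50 bases after each start in RefSeq (GRCm38.p6), which held 44 windows for 41 of the 50 genes. No window was listed for Spc24, Cdc25c, Aurkb, Kif20a, Dlgap5, Tpx2, Foxm1, Incenp and Ccna2. TTTGAA occurred in 72.7% of the windows of these genes, against 17.9% of all 32851 windows and 11.7% of those of tested genes. TTTAAA occurred in 20.5% against 13.2% of all windows, and CCAAT in 79.5% against 37.4%. A CCAAT together with either CHR form was found in 70.5% against 10.7%. TTTAAA reads the same on both strands and was counted once, and no 2 matches overlap in the windows printed here. Of 40 TTTGAA matches, 29 began no more than 50 bases before the start or after it, and of 78 CCAAT matches, 53 began within 100 bases before it. The windows of Cdk1, Ccnb2 and Plk1, which rose in both sexes, and of Cdc25b, which rose in males alone at the threshold, show these letters in capitals, the opposite strand's as TTCAAA and ATTGG.
Cdk1 (chr10:69352863-69353162, minus strand): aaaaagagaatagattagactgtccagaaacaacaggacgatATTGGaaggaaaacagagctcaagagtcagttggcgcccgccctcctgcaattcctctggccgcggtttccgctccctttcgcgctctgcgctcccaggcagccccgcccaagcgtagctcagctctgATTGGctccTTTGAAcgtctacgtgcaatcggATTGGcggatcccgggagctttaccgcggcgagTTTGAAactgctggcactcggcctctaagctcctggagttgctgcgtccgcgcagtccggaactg
Ccnb2 (chr9:70421505-70421804, minus strand): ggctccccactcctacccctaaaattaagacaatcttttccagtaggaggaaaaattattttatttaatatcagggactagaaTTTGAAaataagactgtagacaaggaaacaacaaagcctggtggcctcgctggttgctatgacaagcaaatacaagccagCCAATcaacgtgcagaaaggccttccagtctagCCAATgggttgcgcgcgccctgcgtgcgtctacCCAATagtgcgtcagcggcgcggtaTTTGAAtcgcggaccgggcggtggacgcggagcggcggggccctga
Plk1 (chr7:122159185-122159484, plus strand): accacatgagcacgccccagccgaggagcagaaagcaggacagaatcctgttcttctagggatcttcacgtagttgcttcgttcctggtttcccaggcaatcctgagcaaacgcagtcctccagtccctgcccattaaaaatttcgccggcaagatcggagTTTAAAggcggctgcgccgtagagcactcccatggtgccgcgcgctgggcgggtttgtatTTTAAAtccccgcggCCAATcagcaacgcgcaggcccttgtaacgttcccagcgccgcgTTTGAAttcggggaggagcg
Cdc25b (chr2:131186698-131186997, plus strand): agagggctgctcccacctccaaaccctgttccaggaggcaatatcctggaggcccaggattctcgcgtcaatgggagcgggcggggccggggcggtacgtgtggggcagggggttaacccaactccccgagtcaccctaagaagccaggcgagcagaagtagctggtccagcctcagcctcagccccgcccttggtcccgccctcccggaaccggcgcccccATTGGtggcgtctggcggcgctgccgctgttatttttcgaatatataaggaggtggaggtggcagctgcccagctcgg
Cdk1 had TTTGAA beginning 71 and 15 bases before its start and CCAAT, on the opposite strand, 208, 80 and 48 bases before it. Ccnb2 had CCAAT at 87, 54 and 21 bases before its start and TTTGAA at 167 bases before and 5 bases after it. In Plk1, TTTAAA began 89 and 29 bases before the start and TTTGAA 31 bases after it. Cdc25b held a single CCAAT on the opposite strand and neither CHR form. Of the other genes outside the common pattern, Pttg1 had none of these letters, while both windows of Bub3 held CCAAT and TTTGAA. Of the 5 genes with none of these letters, all but Pttg1 rose in both sexes: Nuf2, Knstrn, Mad2l1 and Nusap1. Troap, Nek2 and Bub1 also rose in both sexes, with CCAAT but without a CHR form. Among the 41 genes with a window, the median female log2 fold change was 0.82 for the 32 with a CHR form and 0.71 for the 9 without.

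Among the cyclins, Cdk1 and the regulators of mitotic entry, 6 of 7 rose in each sex. The counts by role, here and below, are to be read against all tested genes, of which 10.1% rose in males and 20.7% in females. Cdk1, the kinase that starts mitosis (chromosome 10, 69335146 to 69352938 on GRCm38), was at 23.2, 23.5, 21.9 and 22.7 CPM in female WT, 35.0, 33.8, 33.6 and 32.4 in male WT, 40.2, 40.5, 39.0 and 37.9 in female KO and 40.6, 43.9 and 43.9 in male KO. The WT and KO libraries of each sex did not overlap, and female WT was the lowest group. Cdk1 rose by 0.34 ± 0.048 (SE) on the log2 scale in male KO (edgeR adjusted p = 1.41e-06) and by 0.79 ± 0.048 in female KO (adjusted p = 3.38e-15). Where a pair of values follows a gene below, it is the log2 fold change ± SE in males and then in females. The partners of Cdk1 rose too. Ccnb1, or cyclin B1 (chromosome 13, 100778650 to 100786570), was at 9.23, 10.9, 11.1 and 11.8 CPM in female WT, 16.1, 14.8, 15.6 and 16.4 in male WT, 18.7, 18.9, 20.0 and 21.2 in female KO and 22.9, 21.6 and 20.6 in male KO. Its highest WT library in each sex lay below the lowest KO library, with log2 fold changes of 0.46 ± 0.072 and 0.86 ± 0.072 in males and females. Ccnb2, or cyclin B2, rose by 0.44 ± 0.068 and 0.87 ± 0.071, and Ccna2, or cyclin A2, which acts from S phase into early mitosis, by 0.36 ± 0.051 and 0.76 ± 0.051. Foxm1, a transcription factor that drives expression of G2 and M genes, went from 27.4 ± 1.81 (SD) to 36.9 ± 1.36 CPM in males and from 17.7 ± 0.412 to 33.5 ± 1.27 CPM in females. The phosphatases that activate Cdk1 each passed in 1 sex only. Cdc25c rose in females (0.66 ± 0.12, adjusted p = 4.3e-05 by edgeR). Its log2 fold change in males, 0.23 ± 0.12, did not pass (edgeR adjusted p = 0.19, 95% interval -0.014 to 0.48), at 49 to 126 counts per library. The Cdc25c libraries of male KO, at 4.26 to 5.09 CPM, still lay above those of male WT, at 3.78 to 4.08 CPM.

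Cdc25b (chromosome 2, 131186949 to 131198497) was the one gene of this group that passed in males and not in females. It was at 12.9, 12.9, 11.4 and 10.8 CPM in female WT, 12.9, 12.1, 10.9 and 11.4 in male WT, 12.3, 12.5, 11.8 and 12.6 in female KO and 14.3, 14.9 and 16.98 in male KO. Male KO was thus the high group and the other 3 overlapped. Its log2 fold change was 0.38 ± 0.082 in males (edgeR adjusted p = 0.00077) and 0.040 ± 0.080 in females (adjusted p = 0.724, 95% interval -0.12 to 0.20). The difference between the sexes passed at an adjusted p of 0.0393 by edgeR, with the male effect the larger. That call was lost without male WT replicate 3 or 4, male KO replicate 3, female WT replicate 1 or 2, or female KO replicate 3, with adjusted p = 0.0626 to 0.171 (edgeR). Male KO replicate 3 held the highest Cdc25b value of all libraries.

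All 3 mitotic kinases outside the passenger complex rose in both sexes. Plk1, the polo kinase needed for centrosome maturation and mitotic entry (chromosome 7, 122159439 to 122169873), was at 19.3, 20.6, 21.5 and 22.3 CPM in female WT, 34.7, 33.5, 32.9 and 34.9 in male WT, 42.1, 41.0, 44.5 and 41.4 in female KO and 49.3, 48.4 and 49.4 in male KO. No 2 groups overlapped. The rise was 1.44-fold in males (log2 0.53 ± 0.048, edgeR adjusted p = 2.46e-10) and 2.02-fold in females (log2 1.01 ± 0.049, adjusted p = 1.01e-17). Aurka, the Aurora kinase of spindle poles, rose by 0.56 ± 0.060 and 0.83 ± 0.061, and Nek2, which acts in centrosome separation, by 0.41 ± 0.080 and 0.95 ± 0.082. The chromosomal passenger complex, which corrects wrong attachments and guides cytokinesis, rose in all 4 of its genes in each sex. Birc5, or survivin, had the highest male fold of the 50 (0.62 ± 0.076), with libraries at 15.5, 13.6, 12.6 and 13.8 CPM in male WT and 22.0, 19.4 and 22.8 in male KO. In females it was at 8.92, 9.79, 9.86 and 9.68 CPM in WT and 16.8, 16.1, 18.6 and 17.2 in KO. The sets do not overlap in either sex, and for Birc5 the male and female effects differed by 0.23 ± 0.11, which did not pass (edgeR adjusted p = 0.174). The kinase gene Aurkb rose by 0.41 ± 0.078 and 0.88 ± 0.080, the scaffold gene Cdca8 (borealin) by 0.50 ± 0.067 and 0.85 ± 0.067, and Incenp, which binds and activates Aurora B, by 0.25 ± 0.055 and 0.60 ± 0.055.

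Of the 8 centromere and kinetochore genes, 6 rose in male KO and 8 in female KO. Cenpe, the large kinesin that carries chromosomes to the spindle equator (chromosome 3, 135212537 to 135273611), was at 31.7, 34.3, 32.9 and 29.6 CPM in female WT, 41.6, 43.8, 47.4 and 45.0 in male WT, 53.3, 62.5, 58.2 and 58.2 in female KO and 60.1, 54.9 and 61.8 in male KO. Its KO groups overlapped, while both stood above both WT groups. Cenpe rose by 0.41 ± 0.054 in males and 0.86 ± 0.053 in females. Cenpa, the histone H3 variant that marks centromeres, rose by 0.37 ± 0.066 and 0.83 ± 0.067, and Cenpf, a large outer kinetochore protein, by 0.46 ± 0.059 and 0.79 ± 0.059. The 4 genes of the Ndc80 complex, which grips microtubules, were less even. Ndc80 itself was at 7.60, 6.38, 6.54 and 6.54 CPM in female WT, 9.29, 9.50, 8.96 and 10.04 in male WT, 11.8, 10.6, 12.3 and 9.86 in female KO and 10.2, 11.8 and 11.4 in male KO. The male libraries did not overlap, but the change of 0.24 ± 0.091 did not pass (edgeR adjusted p = 0.0561), and leaving out male KO replicate 1, male WT replicate 4 or female KO replicate 3 or 4 brought it to 0.0378 to 0.049. In females Ndc80 rose by 0.72 ± 0.090. Spc24 rose in females (0.64 ± 0.12) and was at 0.20 ± 0.12 in males (adjusted p = 0.244 by edgeR, 95% interval -0.035 to 0.44). Nuf2 rose by 0.34 ± 0.079 and 0.69 ± 0.080. Spc25 rose by nearly the same amount in both, 0.38 ± 0.075 and 0.42 ± 0.072, with a difference of 0.043 ± 0.10 (95% interval -0.17 to 0.25). Knstrn, a spindle and kinetochore adaptor, rose by 0.27 ± 0.081 and 0.71 ± 0.081.

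In the spindle checkpoint, 4 of 5 genes rose in each sex, and Bub3 did not. Bub1, a checkpoint kinase (chromosome 2, 127801122 to 127831865), was at 11.2, 11.4, 12.1 and 11.5 CPM in female WT, 16.3, 18.1, 17.5 and 18.2 in male WT, 19.6, 20.3, 20.7 and 20.9 in female KO and 21.8, 22.8 and 22.5 in male KO. It rose by 0.36 ± 0.062 and 0.82 ± 0.063 in males and females without overlap of WT and KO. Its relative Bub1b, or BubR1, rose by 0.36 ± 0.057 and 0.82 ± 0.057, the checkpoint kinase gene Ttk, or Mps1, by 0.47 ± 0.093 and 0.82 ± 0.097, and Mad2l1, which binds and inhibits Cdc20, by 0.28 ± 0.071 and 0.52 ± 0.070. Bub3, the propeller protein that recruits Bub1 and BubR1 to kinetochores (chromosome 7, 131560222 to 131571895), was at 81.8, 87.0, 89.0 and 84.6 CPM in female WT, 91.0, 82.1, 84.6 and 83.8 in male WT, 94.4, 87.0, 93.2 and 84.2 in female KO and 87.6, 88.3 and 92.1 in male KO. All 4 groups overlapped. Its log2 fold changes were 0.062 ± 0.042 (edgeR adjusted p = 0.34, 95% interval -0.024 to 0.15) and 0.066 ± 0.039 (adjusted p = 0.185, 95% interval -0.013 to 0.15). The female interval lies below the smallest rise that passed in females, 0.36 for Ckap2. In males the interval lies below the smallest such rise, 0.22 for Prc1, but overlaps the 95% interval of Prc1, 0.13 to 0.31.

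The genes of anaphase onset split in the same way, with 3 of 4 higher in each sex. Ube2c, the ubiquitin-conjugating enzyme of the anaphase-promoting complex (chromosome 2, 164769898 to 164778822), was at 20.1, 22.3, 22.3 and 23.0 CPM in female WT, 38.3, 38.7, 36.6 and 35.9 in male WT, 43.6, 43.9, 44.5 and 46.8 in female KO and 56.2, 52.3 and 55.0 in male KO. No 2 groups overlapped. Ube2c rose 1.46-fold in males (log2 0.54 ± 0.047, edgeR adjusted p = 8.57e-11) and 2.04-fold in females (log2 1.03 ± 0.049, adjusted p = 5.32e-18), with the smallest p of the 50 in each sex. Its exons share 592 bases with Tnnc2 on the opposite strand, and some others of the 50 share more, up to 1271 bases for Kif20a. Cdc20, which activates the complex, rose by 0.52 ± 0.060 and 0.93 ± 0.061. Espl1, or separase, the protease that cuts cohesin (chromosome 15, 102296266 to 102324357), was at 5.68, 6.12, 5.96 and 7.54 CPM in female WT, 11.8, 11.8, 10.5 and 10.4 in male WT, 14.2, 12.9, 14.9 and 13.4 in female KO and 17.6, 15.7 and 17.7 in male KO. It had the second highest fold of the 50 in both sexes, 0.61 ± 0.084 and 1.12 ± 0.089. Pttg1, or securin, the inhibitor of separase (chromosome 11, 43420250 to 43426251), did not follow it. Its libraries were at 16.6, 16.5, 16.8 and 15.6 CPM in female WT, 14.1, 16.9, 14.3 and 13.6 in male WT, 13.8, 15.4, 13.8 and 15.03 in female KO and 16.99, 14.4 and 14.9 in male KO. The male groups overlapped, and every female KO library lay below every female WT library. Neither change passed in edgeR: 0.074 ± 0.078 in males (adjusted p = 0.571) and -0.17 ± 0.073 in females (adjusted p = 0.061, 95% interval -0.32 to -0.023). The female value passed as a decrease under several alternatives, among them a fit of the female libraries alone (adjusted p = 0.036 by edgeR). It also passed without female KO replicate 2 (0.0437), male WT replicate 1 (0.0495) or male WT replicate 2 (0.0402).

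All 5 kinesins of the spindle and chromosomes rose in both sexes. Kif18b, which trims microtubule plus ends (chromosome 11, 102905529 to 102925124), was at 7.35, 8.19, 8.84 and 8.09 CPM in female WT, 14.2, 12.9, 13.4 and 15.1 in male WT, 17.4, 17.8, 17.3 and 17.3 in female KO and 20.4, 20.0 and 20.1 in male KO. KO stood above WT in each sex without overlap, by 0.54 ± 0.069 in males and 1.10 ± 0.072 in females. Kif11, the motor that pushes spindle poles apart, rose by 0.36 ± 0.057 and 0.70 ± 0.058, and Kif2c, a microtubule depolymerase of centromeres, by 0.44 ± 0.067 and 0.88 ± 0.068. Kif4, a chromosome-bound kinesin encoded on the X chromosome, rose by 0.33 ± 0.065 and 0.93 ± 0.066, and Kif22, which moves chromosome arms, by 0.39 ± 0.069 and 0.80 ± 0.070. A pseudogene named after Kif4 and 1 named after Kif22 are annotated, as for Ccnb1 and Ccnb2, so reads may be split between the copies.

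The 6 microtubule-associated genes of the spindle also all rose in each sex, over a wide span. Troap, a low-abundance spindle protein gene (chromosome 15, 99074575 to 99083409), was at 3.04, 3.14, 2.44 and 3.49 CPM in female WT, 5.76, 4.55, 5.09 and 4.06 in male WT, 6.85, 7.04, 6.93 and 6.17 in female KO and 6.42, 6.66 and 7.22 in male KO. The KO groups overlapped and both lay above both WT groups. Its female log2 fold change of 1.14 ± 0.12 was the highest of the 50 (edgeR adjusted p = 2.43e-09), against 0.45 ± 0.12 in males. Tpx2, which activates Aurora A and seeds spindle microtubules, went from 66.0 ± 1.18 to 84.0 ± 3.66 CPM in males and from 44.3 ± 1.69 to 77.1 ± 3.78 CPM in females. Dlgap5 (HURP), which stabilises kinetochore fibres, rose by 0.47 ± 0.066 and 0.87 ± 0.068, Nusap1 by 0.33 ± 0.079 and 0.73 ± 0.079, and Hmmr by 0.33 ± 0.062 and 0.56 ± 0.062. Ckap2 had the smallest rise that passed in females, from 25.7 ± 0.599 to 33.0 ± 1.63 CPM (log2 0.36 ± 0.052), close to its male value of 0.28 ± 0.055.

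The 6 genes of the spindle midzone and cytokinesis all rose in both sexes. Anln, or anillin, which organises the contractile ring (chromosome 9, 22332012 to 22389188), was at 49.0, 47.1, 47.7 and 49.9 CPM in female WT, 70.1, 76.3, 70.8 and 72.6 in male WT, 78.4, 83.0, 89.6 and 78.3 in female KO and 86.4, 87.7 and 90.3 in male KO. WT and KO did not overlap in either sex. Anln rose by 0.29 ± 0.043 in males and 0.77 ± 0.042 in females. The other female values lay close together. They were 0.75 ± 0.042 for Prc1, the bundler of midzone microtubules, and 0.87 ± 0.047 for the kinesin Kif20a. Kif23 and Racgap1, which form centralspindlin, had 0.92 ± 0.050 and 0.80 ± 0.047. Ect2, the exchange factor that activates RhoA at the cell equator, had 0.76 ± 0.063. The male values ran from 0.22 ± 0.043 for Prc1, the smallest male rise that passed, to 0.55 ± 0.050 for Kif23.

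Mki67, which encodes the proliferation antigen Ki-67 (chromosome 7, 135689784 to 135716361), was at 72.5, 72.8, 78.0 and 75.9 CPM in female WT, 109.9, 112, 114 and 116 in male WT, 124, 140.4, 144 and 137 in female KO and 148, 139 and 163 in male KO. It rose by 0.41 ± 0.047 in male KO and 0.87 ± 0.046 in female KO, and its female WT libraries were all below its male WT libraries. Top2a, the topoisomerase that untangles sister chromatids, rose from 105 ± 4.15 to 134 ± 4.31 CPM and from 73.6 ± 2.37 to 121 ± 5.41 CPM. Both KO groups of Mki67 overlapped, at -0.14 ± 0.047 for female against male (edgeR adjusted p = 0.0735, 95% interval -0.24 to -0.040).

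The effect of KO was then compared between the sexes. It was larger in females for 39 of the 50 genes and larger in males for Cdc25b, with 10 not passing, against 9.76% and 5.89% of all tested genes (edgeR interaction contrast, adjusted p below 0.05). The median difference was 0.42 on the log2 scale. Troap had the largest difference (0.69 ± 0.17, adjusted p = 0.00392 by edgeR), followed by Kif4 (0.60 ± 0.093) and Kif18b (0.56 ± 0.10), and Prc1 had the smallest p (0.53 ± 0.060, adjusted p = 4.98e-08). Beside Birc5, Bub3, Pttg1 and Spc25, those that did not pass were Cdc25c, Spc24, Mad2l1, Ttk, Hmmr and Ckap2. Aurka had the smallest difference that passed (0.27 ± 0.086, adjusted p = 0.027 by edgeR). Its call was lost when scaled by library size alone, and without male WT replicate 1, male KO replicate 1 or 3, female WT replicate 2 or 3, or female KO replicate 2 or 3 (edgeR adjusted p = 0.0505 to 0.0945). The call for Nuf2 (0.35 ± 0.11, edgeR adjusted p = 0.0305) was lost with library size alone, without a filter on low counts and with DESeq2's test. Nuf2 also lost it without male WT replicate 1 or 2, male KO replicate 1 or 3, female WT replicate 1, 2 or 3, or female KO replicate 2. On the CPM scale too, the KO minus WT difference was the larger in females for 48 of the 50. The comparisons that follow use the same libraries.

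The same contrast, read the other way, sets the sex difference in KO against that in WT. In WT, 46 of the 50 genes were lower in females and 0 higher, against 16.0% and 12.6% of all tested genes, with a median log2 difference of -0.54. Espl1 (-0.81 ± 0.091), Kif18b (-0.77 ± 0.073) and Ube2c (-0.77 ± 0.049) had the largest such differences. The 4 that did not pass were Bub3 (-0.00011 ± 0.039), Cdc25b (0.0088 ± 0.079), Pttg1 (0.16 ± 0.072) and Spc25 (-0.14 ± 0.073). In KO, 15 were lower in females and 0 higher, against 4.26% and 4.94% of all tested genes, with a median of -0.14. The 15 included Cdc25b (-0.33 ± 0.083), Ccnb2 (-0.33 ± 0.068) and Ube2c (-0.28 ± 0.047). Their number fell to 3 of the 50 without male KO replicate 3, whose summed level of 1897 CPM was the highest of all libraries. Over the fits that each left out 1 library, 416 to 687 of all tested genes were lower, against 593 in the reported fit. Whether the lost calls came from the level of that replicate or from having fewer libraries was not tested. The median of the 50 without male KO replicate 3 was -0.13, against -0.14 with it.

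**Figure D3:**
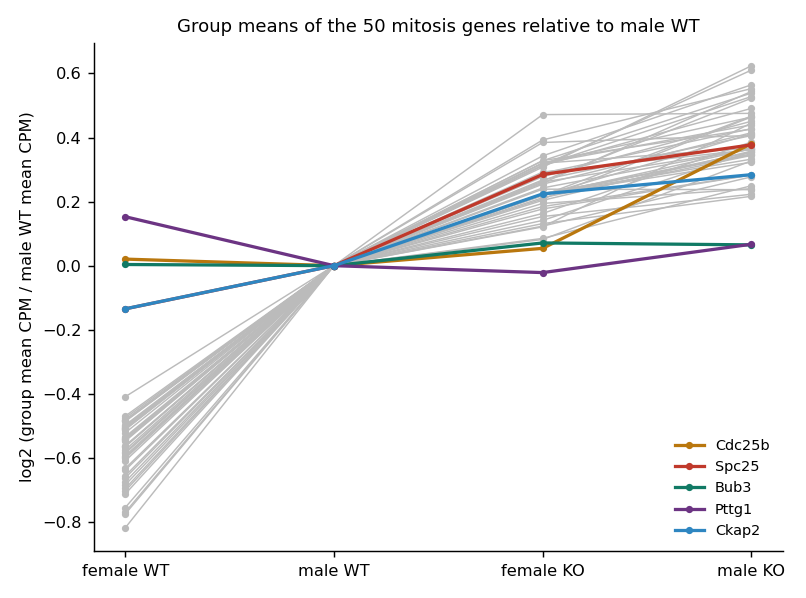
Log2 ratio of each group's mean CPM to the male WT mean for each of the 50 genes, with groups ordered by their summed level; grey lines are single genes. Most lines climb from female WT to male KO, while Bub3 stays level, Pttg1 is highest in female WT, Cdc25b is raised in male KO alone, and Spc25 and Ckap2 have a small step between the WT groups (-0.14 and -0.14 in the edgeR fit).

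Levels of different genes were compared per kilobase of exon (union of GENCODE M21 exons). In female WT the highest was Bub3 at 12.2 CPM per kb, then Cdc20 (10.01), Plk1 (9.50), Tpx2 (9.47) and Ube2c (8.43). The lowest were Cdc25c (0.574), Espl1 (0.723), Troap (0.860) and Ttk (0.912). In male KO, Cdc20 (22.8), Plk1 (22.3) and Ube2c (20.9) stood above Bub3 (12.8). Securin (Pttg1) was at 8.19 CPM per kb and separase (Espl1) at 0.723 in female WT, and at 7.71 and 1.95 in male KO. The annotation used for counting is not stated, so these lengths may differ from those counted. Exons of 17 of the 50 genes overlap those of another gene, 15 of them on the opposite strand only, and the strand setting of the counting is not stated in the sources used here.

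Other genes of mitosis were taken from 7 lists, 125 genes in all, every one with enough counts to be tested. Of these, 51 rose and 1 fell in male KO (median 0.21), where 10.1% of all tested genes rose and 10.1% fell. In female KO 79 rose and 5 fell (median 0.30), where 20.7% of all tested genes rose and 18.6% fell. The counts of the single lists that follow are to be read against these shares. In the list of further spindle, centrosome and cytokinesis genes 20 of 36 rose in males and 29 in females, led by Melk (0.56 ± 0.076) in males and by the kinesin Kif14 (1.07 ± 0.093) and Iqgap3 (1.04 ± 0.053) in females, while the spindle protein gene Psrc1 fell in females (-0.31 ± 0.042). Condensin, which compacts chromosomes, rose in 6 of 8 genes in males and 8 of 8 in females, with Ncapg at 0.43 ± 0.080 and 0.75 ± 0.079. Of 16 other outer kinetochore and checkpoint genes 8 and 12 rose, among them Casc5 (Knl1), the scaffold that recruits Bub proteins (0.48 ± 0.082 and 0.84 ± 0.082), and Zwint fell in females (-0.081 ± 0.028). Of 19 inner kinetochore genes 5 and 9 rose, with Cenpi at 0.48 ± 0.11 and 0.74 ± 0.11. Among 16 other entry regulators 8 and 11 rose, led by Mybl2, or B-Myb (0.65 ± 0.10 and 1.01 ± 0.11), and the phosphatase regulator Ensa fell in both (-0.13 ± 0.035 and -0.15 ± 0.032). The anaphase-promoting complex and cohesin, which also act outside mitosis, had the medians nearest 0 of the 7 lists. Of 16 genes of the anaphase-promoting complex and its inhibitors, 1 rose in males and 5 in females (medians 0.014 and 0.056), with the inhibitor Fbxo5, or Emi1, the highest of the list in females (0.66 ± 0.12). Of 14 cohesin genes 3 and 5 rose, led by the shugoshins Sgol2a (0.57 ± 0.082 and 0.86 ± 0.083) and Sgol1 (0.44 ± 0.11 and 0.83 ± 0.11), while the ring subunit gene Rad21 (-0.088 ± 0.030) and the regulator gene Pds5b (-0.17 ± 0.045) fell in females.

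**Figure D4:**
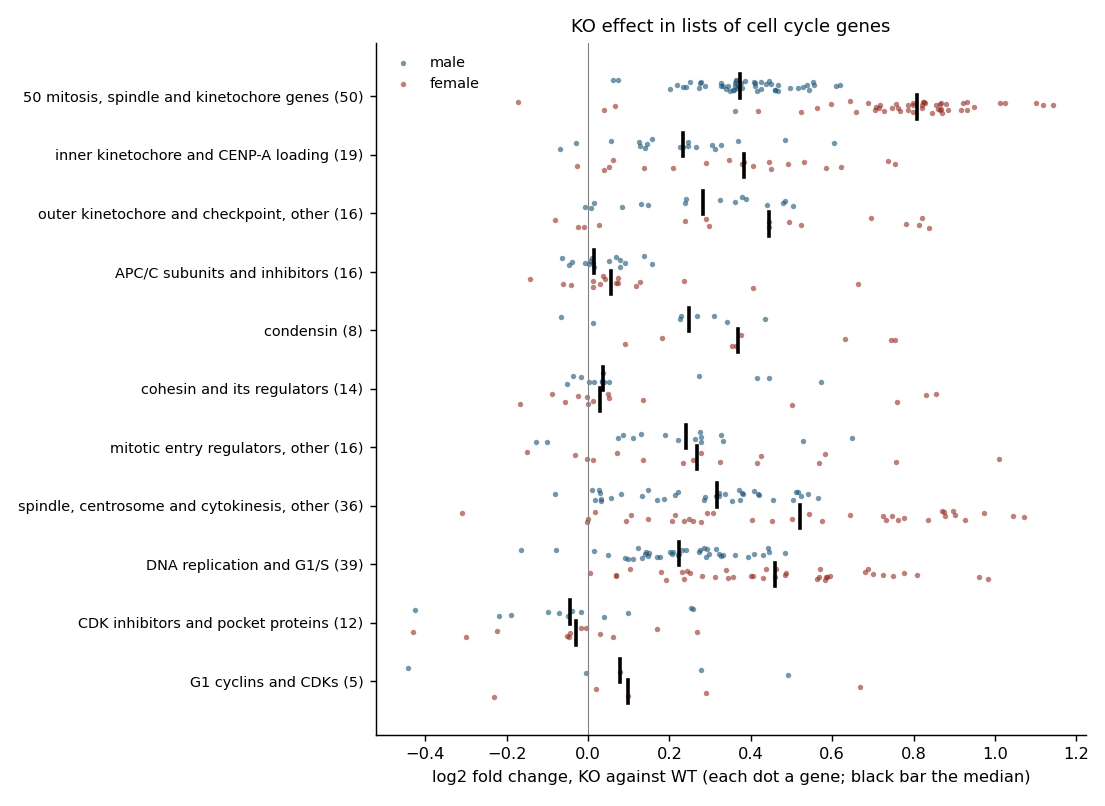
Log2 fold change of KO against WT for each tested gene (dots) of the 50 mitosis genes and 10 further cell cycle lists, in males (blue) and females (red); black bars are medians and the number of genes is in parentheses. The 50 genes have medians of 0.37 and 0.81, and the anaphase-promoting complex and cohesin lists lie near 0.

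Genes of DNA replication and the G1 to S transition also rose. Of 39, 24 rose in male KO and 32 in female KO and 0 fell in either, with medians of 0.22 and 0.46 against 0.37 and 0.81 for the 50. Tk1, or thymidine kinase, led in males (0.48 ± 0.085) and Rrm2, a subunit of ribonucleotide reductase, in females (0.98 ± 0.040). The ratio of the summed level of the 50 mitosis genes to that of the 39 was 1.33 ± 0.0209 (SD) in female WT, 1.46 ± 0.0128 in male WT, 1.58 ± 0.0282 in female KO and 1.61 ± 0.0230 in male KO. The ratios of WT and KO libraries did not overlap in either sex. Among genes that govern entry into the cycle, cyclin D1 (Ccnd1) rose by 0.49 ± 0.037 and 0.67 ± 0.034 in males and females, and cyclin D2 (Ccnd2) fell by 0.44 ± 0.033 and 0.23 ± 0.031. Of 12 CDK inhibitors and pocket proteins 1 rose and 3 fell in each sex, against 10.1% higher and 10.1% lower of all tested genes in males and 20.7% and 18.6% in females. Nothing is read from these counts, and the genes are given as values. The one that rose was Rbl1, or p107 (0.25 ± 0.062 and 0.17 ± 0.059). Rbl2, or p130, the pocket protein of quiescent cells, fell in males (-0.22 ± 0.052), as did the inhibitor genes Cdkn2d (-0.43 ± 0.12) and Cdkn1c, or p57 (-0.19 ± 0.059). In females the values of those that fell were -0.43 ± 0.058 for Cdkn1c, -0.30 ± 0.052 for Cdkn2a and -0.22 ± 0.043 for Cdkn2b.

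With the pool as the unit, the 4 pools allow a test of KO against WT with sex as a covariate and 1 residual degree of freedom. That residual is the difference of the KO effect between the sexes, so the difference itself cannot be tested with the pool as the unit. None of the 50 genes passed in it (edgeR adjusted p = 0.112 to 0.852), where 0.0326% of all tested genes did, 0.00652% as increases and 0.0261% as decreases. At an unadjusted p below 0.05, 47 of the 50 were higher, against 9.12% of all tested genes, and limma-voom on the same pools gave 0 of the 50 at the adjusted threshold. The median log2 fold change was 0.59, from -0.044 for Pttg1 to 0.86 for Espl1. Scaled by library size alone 15 of the 50 passed, and without a filter on low counts 9. The number of all genes that passed rose as well, to 289 and 267, against 5 of 15333 in the reported fit.

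Markers of other cell types differed between the same pools. In male KO 9 of 10 tested endothelial and 7 of 9 tested fibroblast genes were lower and 0 higher, where 10.1% of all tested genes were lower. In female KO 0 endothelial genes were lower and 3 higher, and 5 fibroblast genes were lower and 2 higher, where 18.6% of all tested genes were lower and 20.7% higher. The summed level of 10 endothelial genes was 113 to 126 CPM in male WT, above the 52.5 to 60.1 of male KO, the 45.5 to 54.0 of female WT and the 51.4 to 67.1 of female KO. In females 10 fibroblast genes summed to 3630.0 to 3912 CPM with WT and 2612 to 2845 with KO, and in males to 3527 to 3767 and 1849 to 2043, so the sum was lower in KO in both sexes. For the 23 proximal tubule genes it was 123 to 135 CPM with WT and 95.2 to 100.4 with KO in females, and 106 to 118 and 95.5 to 101 in males. That sum follows its most abundant genes, Ggt1 (68.7 CPM in female WT and 35.5 in female KO) and Lrp2 (19.5 and 12.1). The list itself went the other way in females, with 10 of the 12 tested genes at a positive log2 fold change (median 0.24), 3 higher and 2 lower. In males 5 of the 12 were positive (median -0.12), with 1 higher and 2 lower. The 8 kidney epithelial genes were at 4586 to 4850.0 CPM in male WT and 5756 to 5859.6 in male KO, and at 4237 to 4368 and 5089.6 to 5237 in female WT and KO. Most of the female difference lay in Krt8 (1544 and 2093 CPM) and Krt18 (1075 and 1384 CPM), while 4 of the 8 genes had a negative value and Pax8 (-0.16 ± 0.033) and Pax2 (-0.27 ± 0.040) fell. In males 4 of the 8 rose and 0 fell. Leukocyte genes (12) summed to 23.1 to 28.3 and 35.5 to 37.7 CPM in male WT and KO and 38.1 to 47.4 and 52.8 to 65.1 CPM in female WT and KO. Of the 10 tested, 5 were higher and 0 lower in KO in each sex (median log2 fold changes 0.76 in males and 0.54 in females). Of all tested genes 10.1% were higher in males and 20.7% in females. Podocyte genes (8) were at 479 to 506, 407 to 444, 310.3 to 326 and 321 to 363 CPM in male WT, male KO, female WT and female KO, and 11 distal nephron and collecting duct genes at 10.5 to 13.1, 6.76 to 8.65, 18.6 to 20.5 and 4.19 to 7.53. Of the fibroblast, leukocyte and distal lists 9 of 10, 10 of 12 and 6 of 11 genes had enough counts to be tested, and of the other 3 all did. No gene of these 6 lists was at 0 in all libraries, and their part in the levels of the mitosis genes was not tested.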

How the data were processed

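The 15 RNA libraries, from primary proximal tubule cells of mice, were made with a strand-specific mRNA kit per the labels' protocols. Per the submitters' processing notes, the tools were STAR 2.6.1, featureCounts, edgeR 3.26.8 and limma 3.40.6, with genome build mm10. The annotation and strand setting of the counting are not given in the sources used here. The authors deposited a table of counts per gene, which was tested, and a table of CPM, which equals the counts scaled by library total to within 1e-06 and was used only for that check. Of the gene names, 26 are date-like and could not be read as symbols.

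Counts were scaled by TMM (factors 0.981 to 1.02) and fitted with edgeR 4.0.16 in R 4.3.3 (glmQLFit and glmQLFTest, robust) after filterByExpr (minimum count 10, minimum total 15), with a mean for each of the 4 groups. This left 13912 genes, 11 residual degrees of freedom and a common biological coefficient of variation of 3.59%. P-values were adjusted by Benjamini-Hochberg over all tested genes, with a threshold of 0.05, and SE is the log2 fold change over the root of F. A second fit used counts summed per pool (15333 genes). Levels are TMM-scaled CPM. The replicate numbers were not taken to pair libraries, since no label says that they do and not every pair's correlation was over 0.1: 21 pairs with the same number had correlations of -0.031 to 0.29 in deviation from the group mean, 4 of them over 0.1. Alternatives used DESeq2 1.42.0 and limma 3.58.1, other scalings and filters, the replicate block and leaving out each library. The tests were tried on simulated data with the spread between libraries. Of genes changed 1.3-fold, 64% were called in males and 61% in females, and of those changed 1.5-fold, 87% and 89%. Unchanged genes made up 12 of 163 calls in males and 12 of 162 in females. No difference between the sexes was simulated, so the power to find one was not tried. Positions, exon lengths and overlaps are from GENCODE M21 (GRCm38).

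The 50 genes, the other lists and the markers were chosen with earlier results of these data known. By rule, the genes named were a set covering every role, the 2 highest and 2 lowest fold changes in each sex and in the difference, every member not called, and the most changed of each other list. Genes given as exceptions or as highest and lowest were chosen after their values were seen.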

Additional observations from a re-analysis of the deposited data

Results flagged for a closer look

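The effect of KO differed between the sexes for 25 of the 31 genes named by rule, by edgeR's interaction contrast (adjusted p below 0.05). The differences, female minus male on the log2 scale, were 0.44 for Cdk1, 0.40 for Ccnb1, 0.39 for Ccna2, 0.50 for Foxm1, 0.48 for Plk1 and 0.27 for Aurka, whose call was lost with library size only and without any 1 of 7 libraries. Among passenger and kinetochore genes they were 0.47 for Aurkb, 0.46 for Cenpa, 0.45 for Cenpe, 0.48 for Ndc80 and 0.46 for Bub1. Among genes of anaphase they were 0.42 for Cdc20, 0.51 for Espl1 and 0.48 for Ube2c. Spindle genes had 0.35 for Kif11, 0.44 for Kif2c, 0.60 for Kif4, 0.45 for Tpx2 and 0.69 for Troap. The values for the midzone and chromosome genes were 0.53 for Prc1, 0.48 for Anln, 0.39 for Ect2, 0.36 for Top2a and 0.46 for Mki67. Cdc25b alone of the 25 had the larger effect in males, at -0.34.

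A single library stood apart from the other 3 of its group in 4 of 96 groups tested, and chance flags about 1 in 20. Male KO, with 3 libraries, was too small for this test and was not checked. Spc24 was at 6.02 CPM in 1 male WT library, Tpx2 at 64.2 CPM in 1 male WT library, Ndc80 at 7.60 CPM in 1 female WT library and Kif2c at 21.7 CPM in 1 female KO library.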

How the results depend on the processing

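The number of the 50 genes that rose was 45 in male KO and 47 in female KO under each scaling, filter and tool tried, except for 46 in female KO with the filter of 5 CPM in 3 libraries, which leaves out Cdc25c. Leaving out 1 library gave 44 to 46 in male KO and 47 to 47 in female KO. The number lower in female KO, 0 in the reported fit, was 1 (Pttg1) with upper quartile scaling, library size only, the filter of 5 CPM in 3 libraries and the fit of the 2 groups alone, and 0 to 1 without 1 library. For the difference between the sexes, 36 to 41 had the larger effect in females and 0 to 2 the smaller without 1 library, and with library size only 1272 of all genes had the smaller effect against 819. Without 1 library, 0 to 1 were higher and 45 to 46 lower in female WT, and 3 to 18 were lower in female KO, the 3 without male KO replicate 3. The other settings gave 14 to 20 lower in female KO, the 20 with library size only. With the replicate block, 45 rose in males, 47 in females, 39 differed more in females, 46 were lower in female WT and 19 in female KO, and 9 of 15 libraries correlated best with their own number, a hint from the data and not from the design.

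Over summed pools 0 of the 50 passed, but 15 with library size only, 9 without a filter and 0 to 2 without 1 library, the 2 without male WT replicate 1. All genes called there numbered 5, but 8 with DESeq2 size factors or upper quartile scaling, 289 with library size only, 267 without a filter, 0 at 5 CPM, 1 with limma-voom (chosen after seeing the data) and 0 to 31 without 1 library. The cause was not tested.

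The female value of Cdc25b was -0.012 without female WT replicate 4, and up to 0.076 without another library. The difference between the sexes for Bub3, 0.0045, was -0.00063 with DESeq2 size factors, -0.00086 with upper quartile scaling and DESeq2's test, -0.034 with library size only, -0.0016 without a filter and -0.034 to 0.029 without 1 library. Counts of 49 to 126 per library limit Cdc25c.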
